A study of Saccharomyces cerevisiae with 8 samples.

Results

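Mutants of 56 genes for ribosome assembly and export factors were followed in a pooled barcode screen of *Saccharomyces cerevisiae* grown with selenomethionine (SeMet), the selenium analogue of methionine. These factors bind precursors of the ribosomal subunits, help to fold, cut and modify the rRNA, place ribosomal proteins and take the particles through the nuclear pores, and most of them leave before the subunit takes part in translation. Precursors of the large (60S) and of the small (40S) subunit are made in the nucleolus from a common rRNA transcript and then follow separate routes to the cytoplasm. A mutant that lacks a factor, or has less of it, usually makes fewer subunits of that kind.

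The 56 genes were chosen by symbol from a list of assembly and export factors, out of 5100 gene names on the array, and the probes of a gene were averaged on each array. By their known function, 38 serve the large subunit, 13 the small subunit, and 5 serve both or could not be assigned. Probes were found for 55 of the 56 (SYO1, which carries Rpl5 and Rpl11 into the nucleus, had none under its name), and 49 had a value on at least 1 array. No value was given for NSR1, RPF1, SSF1, ERB1, NOP1 or EFG1.

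The pool held haploid deletion strains made in BY4741 and DAmP strains (decreased abundance by mRNA perturbation), in which an essential gene is kept but its mRNA is less abundant. All strains share the auxotrophies of BY4741, among them the loss of MET17, which takes inorganic sulfur into homocysteine. A first group of 3 arrays set the pool after 10 generations with 20 µM SeMet against the untreated pool, and a second group of 2 arrays did the same with 12 µM SeMet. The last group of 3 arrays set the untreated pool after 16 h of growth against the pool at the start (T0). All cultures were grown in synthetic complete medium with methionine and cysteine, and the arrays of a group are named biological replicates. The relative fitness score of a strain is the log2 ratio of its barcode with SeMet over untreated, so that a score of 1 is a doubling, and the growth fitness score is the log2 ratio of untreated over T0. Each group was labelled in a single dye orientation, so an effect of the dye cannot be told apart from an effect of the pool.

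A value was present for 4353 to 4722 strains on an array. Replicate 3 at 20 µM was the widest array, with an SD of the scores over strains of 1.11, against 0.80 and 0.78 on replicates 1 and 2. The SD was 0.42 and 0.53 on the 12 µM arrays, and the growth arrays had 0.90, 0.76 and 0.82. The pool was not checked by markers, since barcodes carry no expression, and whether a member was a deletion or a DAmP strain is not marked on the probes. Essentiality was therefore taken from the known biology of each gene, by which 33 members are not essential and 22 are essential, and CGR1 was not assigned. A strain was tested where at least 2 arrays of a group held a value, and it was called higher or lower at an adjusted p under 0.05 (limma, two-sided, Benjamini-Hochberg over all strains).

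With 20 µM SeMet, many assembly factor mutants became more abundant relative to the untreated pool. Of the 45 members tested, 23 were higher, 1 was lower and 21 did not pass the test, whereas 12.5% of all 4536 strains tested were higher and 13.8% were lower. The median score was 0.52 over the members and −0.09 over all strains. Of the members, 14 had a mean above 1.5, the limit used in the study for resistance, compared with 5.34% of all strains, and 13 had a mean above 2, compared with 3.42%. A mean below −1.5 was found for 1 member, compared with 3.06% of all strains. The 23 were above 0 on all 3 arrays, and 21 of them were highest on replicate 3, the widest array. Without replicate 3 the number higher was 19, and it was 22 without replicate 1 and 19 without replicate 2. The symbols were listed when resistant members were already known from these arrays, so the counts are no independent evidence of a direction.

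**Figure D1:**
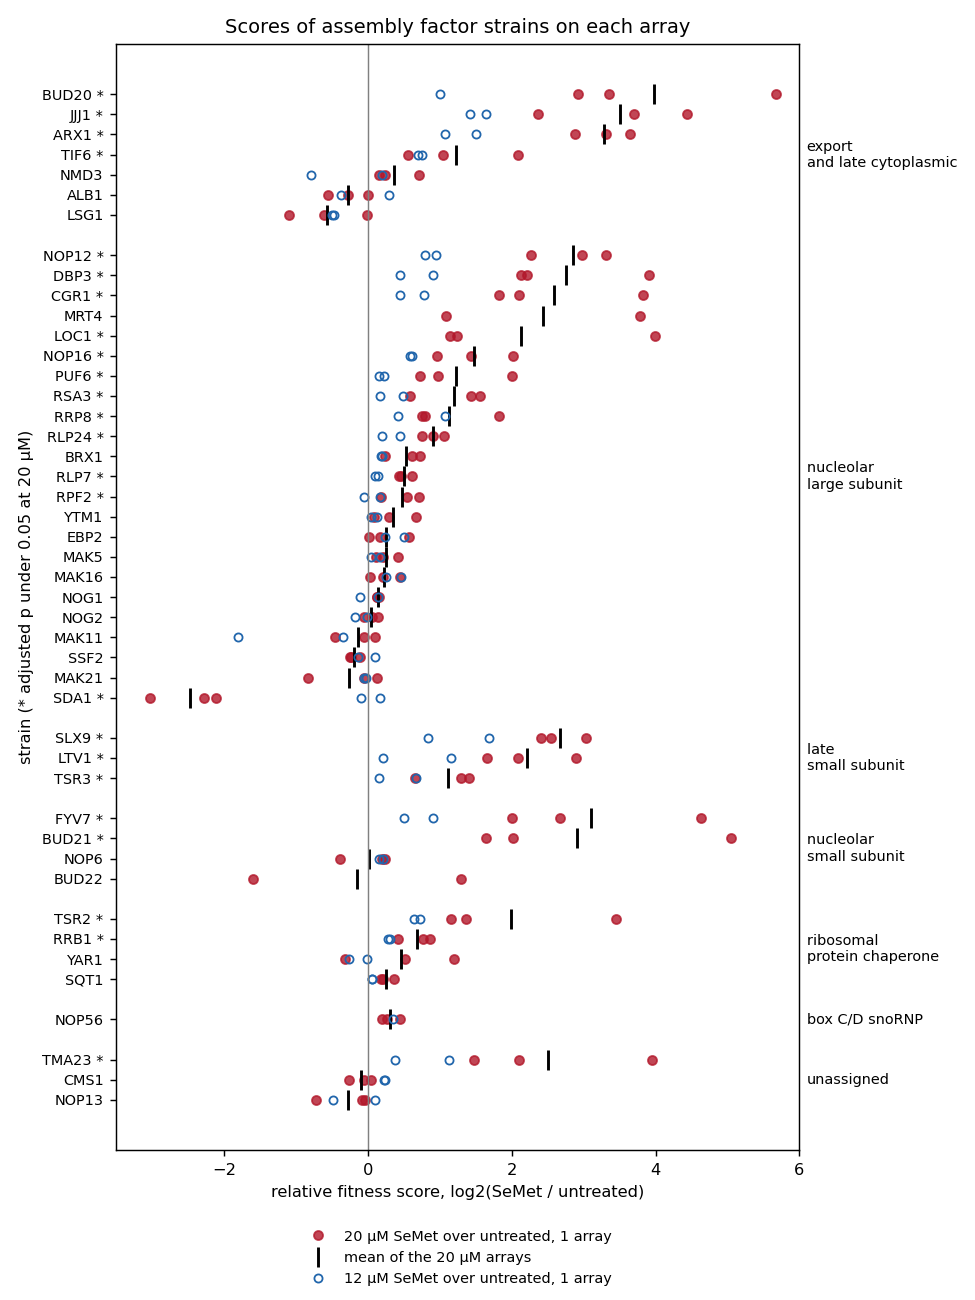
Relative fitness score (log2 ratio of SeMet over untreated, horizontal axis) of the 45 members tested at 20 µM, grouped by stage of assembly. Filled points are single 20 µM arrays, open points single 12 µM arrays, bars the 20 µM mean, and a star marks an adjusted p under 0.05. The mutants of BUD20, JJJ1 and ARX1 lie furthest to the right among export factors, and SDA1 is the only member below −2.

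The export factors of the large subunit held the highest score of all strains at 20 µM. BUD20 (YLR074C) encodes a zinc finger protein that travels with the large subunit precursor through the pore. Its mutant scored 2.92, 3.36 and 5.67 on the 20 µM arrays. Replicate 3 was far above the others, yet even the lowest array was close to 3. The mean of 3.98 ± 1.48 (SD, n = 3), a 15.8-fold higher share, ranked 1 of 4536 strains (limma adjusted p = 0.00398). On the only 12 µM array with a value it scored 1.00, and its growth score was −1.58 and −0.21.

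Arx1 sits near the exit of the peptide tunnel of the precursor and helps it through the pore, and the J-protein Jjj1, with an Hsp70 and Rei1, takes Arx1 off in the cytoplasm. The ARX1 (YDR101C) mutant scored 2.88, 3.32 and 3.65 at 20 µM, and 1.499 and 1.07 at 12 µM. The arrays of each concentration lay close together and the 2 ranges did not overlap. The 20 µM mean was 3.28 ± 0.39 (SD, n = 3), with the lowest adjusted p of all members (limma adjusted p = 7.75e-05). The JJJ1 (YNL227C) mutant scored 2.36, 3.70 and 4.44 at 20 µM, and 1.64 and 1.42 at 12 µM. It was thus also higher on every 20 µM array than on any 12 µM array, with a 20 µM mean of 3.50 ± 1.05 (SD, n = 3, limma adjusted p = 0.000635).

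Alb1 is the shuttling partner of Arx1. The ALB1 (YJL122W) mutant, read by 1 probe, scored −0.28, 0.00 and −0.56 at 20 µM, and 0.29 and −0.37 at 12 µM. These values lie around 0 and overlap (20 µM mean −0.28 ± 0.28, SD, n = 3, limma adjusted p = 0.366). REI1 (YBR267W), whose product releases both Arx1 and Alb1, had no value on any SeMet array, and its growth score was −0.82 and −0.57. It did not pass for growth (limma adjusted p = 0.0567). Its probes differed on growth replicate 1, at −2.42, −0.08 and 0.05, and only the first of them had a value on growth replicate 3. In the annotation the reading frame SLM6 lies wholly within REI1 on the opposite strand. The SLM6 strain scored 2.14, 1.13 and 4.77 at 20 µM (mean 2.68 ± 1.88, SD, n = 3, limma adjusted p = 0.0296), and −1.68 and −2.33 for growth. Whether this strain also lacks REI1 was not tested.

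The later cytoplasmic steps were measured through essential genes. Tif6 keeps the subunits from joining early, and its mutant rose at 20 µM to 0.56, 1.05 and 2.09 (mean 1.23 ± 0.78, SD, n = 3, limma adjusted p = 0.00931). On replicate 1 the 2 TIF6 probes differed, at 1.58 and −0.47. Nmd3 is the export adaptor of the large subunit and Lsg1 is the GTPase that releases it. The NMD3 mutant averaged 0.37 ± 0.30 (SD, n = 3, limma adjusted p = 0.242). The LSG1 (YGL099W) mutant scored −0.01, −1.09 and −0.61 at 20 µM, and −0.50 and −0.47 at 12 µM, so the arrays of the 2 concentrations overlap (20 µM mean −0.57 ± 0.54, SD, n = 3, limma adjusted p = 0.169). Of 7 export and late cytoplasmic mutants tested, 4 were higher at 20 µM (57.1%, against 12.5% of all strains) and 0 lower.

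Nucleolar and nuclear factors of the large subunit were the largest group. Of 23 tested, 11 were higher at 20 µM (47.8%, against 12.5% of all strains), 1 was lower, and the median was 0.50. The highest was NOP12 (YOL041C), an RNA binding protein needed for processing of the 25S rRNA precursor. It scored 2.26, 2.98 and 3.31 at 20 µM, and 0.95 and 0.79 at 12 µM. All 20 µM arrays were above both 12 µM arrays, with a mean of 2.85 ± 0.54 (SD, n = 3, limma adjusted p = 0.000146).

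Next came the DEAD-box helicase gene DBP3 at 2.75 ± 1.01 and the rRNA processing factor gene CGR1 at 2.58 ± 1.08 (SD, n = 3 each, limma adjusted p = 0.00138 and 0.0012). Puf6 and Loc1 both work on large subunit precursors and on the localization of ASH1 mRNA. The LOC1 mutant scored 1.14, 1.24 and 3.996 (mean 2.13 ± 1.62, SD, n = 3, limma adjusted p = 0.0446) and the PUF6 mutant averaged 1.23 ± 0.68 (SD, n = 3, limma adjusted p = 0.00719). On replicate 1 the 2 LOC1 probes differed, at 0.03 and 2.25. The LOC1 call rested on all 3 arrays, since its adjusted p was 0.0551, 0.0618 and 0.0514 without replicates 1, 2 and 3. NOP16, RSA3 and the gene of the 25S rRNA methyltransferase RRP8 were higher too, with means of 1.47, 1.19 and 1.12. NOP16 was read by 1 probe. RSA3 did not pass without replicate 2 or 3 (limma adjusted p = 0.0636 and 0.0819).

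Several assembly factors resemble a ribosomal protein, and some of these hold its place until it comes in. RLP24, a relative of Rpl24, rose to 0.75, 0.91 and 1.06 (mean 0.91 ± 0.15, SD, n = 3, limma adjusted p = 0.000772), and RLP7, a relative of Rpl7, to 0.46, 0.61 and 0.43. These arrays agreed closely, and the RLP7 mean was 0.50 ± 0.10 (SD, n = 3, limma adjusted p = 0.0143). MRT4, a relative of the stalk protein P0, had 1.08 and 3.79 on the 2 arrays with a value, and with so wide a spread it did not pass (limma adjusted p = 0.0574). Among the Brix domain genes, RPF2, which brings in the 5S particle, averaged 0.48 ± 0.28 and was called (limma adjusted p = 0.0326), whereas BRX1 averaged 0.52 ± 0.26 and was not (SD, n = 3 each, limma adjusted p = 0.203). The RLP7 and RPF2 calls are small and did not hold in every fit without a replicate. The limma adjusted p of RLP7 was 0.0504 and 0.0716 without replicates 1 and 2, and that of RPF2 was 0.115 and 0.18 without replicates 2 and 3. On replicate 1 at 20 µM the RPF2 probes had opposite signs, at 0.74 and −0.38.

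Many factors of this group stayed near 0, most of them essential. The GTPase genes NOG1 and NOG2 averaged 0.14 and 0.05, and MAK5, MAK16, EBP2 and YTM1 had means of 0.25, 0.23, 0.25 and 0.34. None of them passed the test. MAK21 (YDR060W), which acts in early assembly, scored −0.06, 0.13 and −0.83 at 20 µM, and −0.05 and −0.02 at 12 µM (20 µM mean −0.26 ± 0.51, SD, n = 3, limma adjusted p = 0.316). SSF2 (YDR312W), not essential, is the gene of a Brix domain protein with the paralog Ssf1 and scored −0.25, −0.23 and −0.11 at 20 µM, and −0.13 and 0.10 at 12 µM. Its arrays were tight but close to 0 (20 µM mean −0.20 ± 0.08, SD, n = 3, limma adjusted p = 0.183). The WD repeat factor MAK11, with 1 probe, averaged −0.14 ± 0.29 at 20 µM (SD, n = 3, limma adjusted p = 0.812).

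SDA1 (YGR245C), whose product acts in maturation and export of the large subunit precursor, went the other way. Its mutant scored −2.11, −2.28 and −3.03 at 20 µM, and −0.10 and 0.17 at 12 µM. It was depleted on every 20 µM array and near 0 on both 12 µM arrays, and its growth score of −0.23, 0.05 and −0.44 was near 0 as well. The 20 µM mean was −2.47 ± 0.49 (SD, n = 3), a 5.55-fold lower share, the 39th lowest of 4536 strains (limma adjusted p = 0.000146). Both SDA1 probes gave this result, at −2.33, −2.33 and −3.15 for the first and −1.89, −2.22 and −2.91 for the other. The difference between 20 and 12 µM was −2.51, the lowest p of the members in that comparison but short of the threshold (limma adjusted p = 0.0526).

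Mutants of small subunit factors were mostly higher. Of 9 tested, 6 were higher at 20 µM (66.7%, against 12.5% of all strains) and 0 lower, with a median of 1.99. All 3 late factors were higher. Slx9 and Ltv1 help the small subunit precursor to mature and leave the nucleus. The SLX9 mutant, read by 1 probe, scored 2.55, 2.41 and 3.04 at 20 µM, and 1.68 and 0.84 at 12 µM, with no overlap (20 µM mean 2.66 ± 0.33, SD, n = 3, limma adjusted p = 0.000132). LTV1 averaged 2.22 ± 0.63, and TSR3, the gene of the 18S rRNA aminocarboxypropyl transferase, averaged 1.12 ± 0.40 (SD, n = 3 each, limma adjusted p = 0.00389 and 0.00205). The 2 LTV1 probes differed, at 2.51 and 0.82 on replicate 2 and at 1.65 and 4.14 on replicate 3. On replicate 1 only 1 of them had a value.

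Nucleolar factors of the small subunit differed among themselves. FYV7 (YLR068W), needed for 18S rRNA processing, scored 2.00, 2.68 and 4.63 at 20 µM, and 0.91 and 0.50 at 12 µM. All 20 µM arrays were higher than the 12 µM arrays (20 µM mean 3.10 ± 1.37, SD, n = 3, limma adjusted p = 0.00684). BUD21 (YOR078W), a component of the small subunit processome, the particle that forms on the early transcript, scored 2.02, 1.64 and 5.04 at 20 µM and had no value at 12 µM. BUD21 was read by 1 probe, and replicate 3 set its wide spread (mean 2.90 ± 1.86, SD, n = 3, limma adjusted p = 0.021). NOP6, which binds early precursors, stayed near 0, at 0.24, 0.19 and −0.39.

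The remaining small subunit mutants were poorly measured. BUD22, needed for 18S rRNA maturation, was read by 1 probe that gave 1.30 and −1.60 at 20 µM, values of opposite sign, yet 3.69 and 2.70 for growth. UTP30 had 1 array at 20 µM, at −1.24, and growth scores of 1.20 and 2.40. BUD23, the 18S rRNA methyltransferase gene, had no value with SeMet and growth scores of −4.76 and −4.10. The large subunit helicase gene DBP7 was similar in this, with 1 value of −0.20 at 20 µM and growth scores of −4.03 and −3.26. Neither strain could be scored with SeMet.

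Some members are dedicated chaperones that carry 1 ribosomal protein, and of 4 tested, 2 were higher (50.0%, against 12.5% of all strains). TSR2, the chaperone of Rps26, scored 1.16, 1.37 and 3.46 (mean 1.99 ± 1.27, SD, n = 3, limma adjusted p = 0.00782), and its client gene RPS26B averaged 1.12 ± 0.22 (SD, n = 3, limma adjusted p = 0.000934). RRB1, the chaperone of Rpl3, averaged 0.68 ± 0.24 (SD, n = 3, limma adjusted p = 0.00886), while the strain of its client RPL3 averaged 0.02. Without replicate 3 RRB1 did not pass (limma adjusted p = 0.0561). SQT1 (for Rpl10) and YAR1 (for Rps3) had means of 0.26 and 0.46 and did not pass, and their clients had no value. YAR1 was higher without replicate 1, its lowest array (limma adjusted p = 0.0312). Of the clients of Syo1, RPL11B averaged 3.42 ± 1.25 (SD, n = 3, limma adjusted p = 0.000507) and RPL5 −0.02. RPL24A and RPL24B, the genes of the protein that replaces Rlp24, averaged 2.30 and 2.04, and both were higher. The other clients, RPL11A, RPS26A and RPP0, were not tested.

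The 5 members that serve both subunits or were not assigned included a single call at 20 µM. TMA23, a nucleolar biogenesis gene, averaged 2.51 ± 1.29 (SD, n = 3, limma adjusted p = 0.00552). NOP13 (YNL175C), the gene of a nucleolar RNA binding protein, scored −0.08, −0.04 and −0.72 at 20 µM, and 0.10 and −0.49 at 12 µM, with overlapping arrays (20 µM mean −0.28 ± 0.38, SD, n = 3, limma adjusted p = 0.303). CMS1 averaged −0.09 and NOP56, a core protein gene of the box C/D particles that guide rRNA methylation, averaged 0.30.

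**Figure D2:**
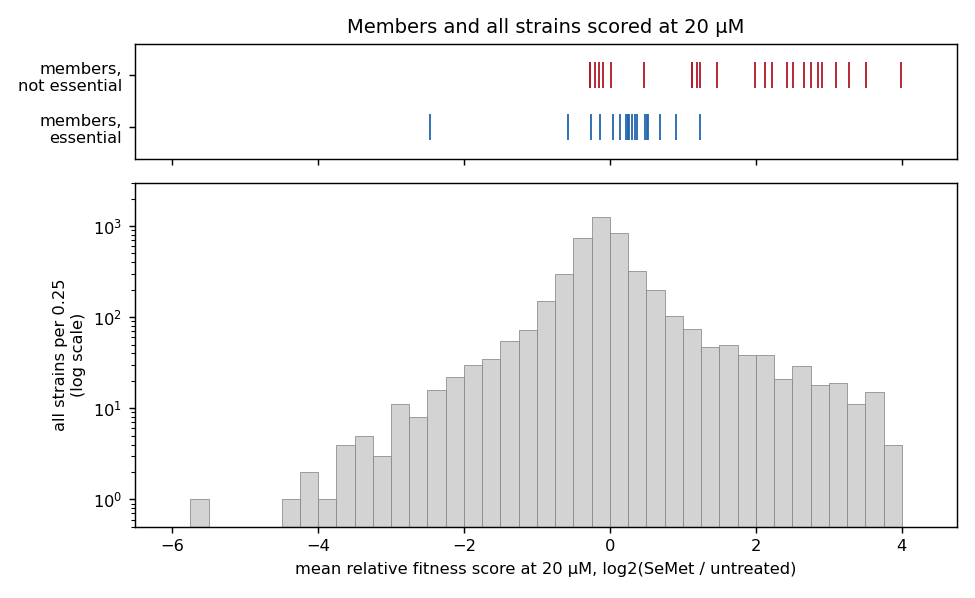
Mean relative fitness score at 20 µM (horizontal axis, log2 ratio). The upper panel marks each member by essentiality (25 not essential, 19 essential, CGR1 left out) and the lower panel counts all 4536 strains per 0.25 on a log scale. Members that are not essential reach 3.98, whereas essential members reach 1.23.

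Large and small subunit factors were then compared on each array, as a description without a test. At 20 µM the median of the large subunit factors minus that of the small subunit factors was −1.07, −0.77 and −2.25. At 12 µM it was −0.44 and −0.33, and for growth it was 0.57, 0.66 and 0.03. So the large subunit had the lower median on all 5 SeMet arrays. However, every small subunit member is a gene that is not essential, whereas 20 of the 38 large subunit members are essential. With large subunit genes that are not essential alone, the difference from the small subunit was −0.25, 0.07 and 0.34 on the 20 µM arrays. It was 0.13 and −0.07 on the 12 µM arrays and −0.14, −0.04 and −0.04 on the growth arrays. With SeMet these values lie on both sides of 0.

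The split by essentiality was wider. Of 13 large subunit mutants of genes that are not essential, 10 were higher at 20 µM (76.9%, median 2.13). Of 18 of essential genes, 5 were higher (27.8%) and 1 lower (median 0.25). Of all strains, which were not split by essentiality, 12.5% were higher and 13.8% lower. Over all members, 17 of 25 that are not essential were higher (68.0%), with means of the called ones between 1.12 and 3.98. Of 19 essential members 5 were higher (26.3%), with means between 0.48 and 1.23. Full deletion and reduced mRNA cannot be told apart from essentiality here, because in this pool deletions were made of genes that are not essential and DAmP alleles of essential ones.

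**Figure D3:**
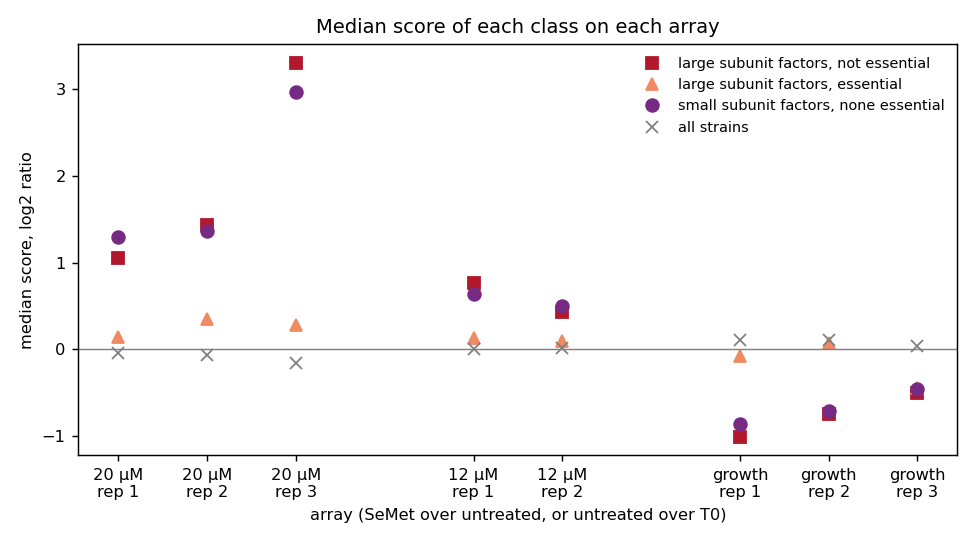
Median score (vertical axis, log2 ratio) on each of the 8 arrays (horizontal axis) for large subunit factors that are not essential, essential large subunit factors, small subunit factors and all strains. On the 20 µM arrays the first class lies at 1.05, 1.43 and 3.31 and the small subunit at 1.30, 1.37 and 2.97, while essential large subunit factors lie at 0.14, 0.35 and 0.29.

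At 12 µM the scores were smaller and no member passed the test. Of 39 members tested, 0 were higher and 0 lower (limma), against 0.137% and 0.87% of all strains. At an unadjusted p under 0.05, 7 of the 39 members were higher and 1, MAK11 at −1.08, was lower. Of all 4368 strains tested, 225 were higher and 290 lower at that limit. The median was 0.23 over the members and 0.00 over all strains. The lowest adjusted p were those of ARX1 at 1.29 ± 0.30 and SLX9 at 1.26 ± 0.60 (SD, n = 2 each, limma adjusted p = 0.0553 and 0.0613), and the highest mean was that of JJJ1 at 1.53 ± 0.15 (SD, n = 2, limma adjusted p = 0.223).

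The difference between 20 and 12 µM was tested itself. Of 39 members tested, 0 were higher and 0 lower (limma), as for all strains (0.0% and 0.0%). At an unadjusted p under 0.05, 12 of the 39 were higher and 1, SDA1, was lower. Of all 4364 strains tested, 295 were higher and 267 lower at that limit. The median difference was 0.42 over the members and −0.09 over all strains. Among differences above 0, the lowest adjusted p were those of ARX1 at 2.00 and NOP12 at 1.98 (limma adjusted p = 0.0615 and 0.085). Without replicate 1 at 20 µM, ARX1, JJJ1 and NOP12 were higher and SDA1 was lower (limma adjusted p = 0.0446, 0.0459, 0.0446 and 0.0446). Without replicate 3 at 20 µM, SDA1 was lower (limma adjusted p = 0.0472). Both scores are ratios to an untreated pool, and whether that DNA was the same on arrays of both concentrations is not given in the sources used here. The test of the difference takes the errors of both groups as independent, which would not hold with shared DNA.

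Without SeMet, assembly factor mutants tended to be lost from the pool. Of 49 members tested for growth, 15 were lower after 16 h than at T0, 3 were higher and 31 did not pass. Of all strains, 12.7% were lower and 14.2% were higher. The median growth score was −0.28 over the members and 0.08 over all strains. LOC1 (YFR001W) had the lowest growth score, at −3.90 and −5.02 on the 2 arrays with a value. Both arrays were far below 0, and the strain ranked 5 from the bottom of 4628 (mean −4.46 ± 0.79, SD, n = 2, a 22.0-fold lower share, limma adjusted p = 0.00901). BUD23 at −4.43 and DBP7 at −3.65 followed (limma adjusted p = 0.00202 and 0.00354).

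Among the other slow mutants, LTV1 averaged −2.25 and TMA23 −2.17, and the essential NOP56 gave −1.78, −1.73 and −2.25, the lowest adjusted p of the members for growth (mean −1.92 ± 0.28, SD, n = 3, limma adjusted p = 0.000501). TIF6 averaged −1.74. The ARX1 and JJJ1 mutants were lower in growth. ARX1 gave −1.84, −1.11 and −1.52 for growth (mean −1.49 ± 0.37, SD, n = 3, limma adjusted p = 0.00207), and JJJ1 −1.19 and −1.87 (mean −1.53 ± 0.48, SD, n = 2, limma adjusted p = 0.0426). NOP12 gave −0.73, −1.16 and −0.31, and was lower as well (limma adjusted p = 0.0424). NOP12 did not pass without growth replicate 1 or 2 (limma adjusted p = 0.144 and 0.212). JJJ1 could not be tested without growth replicate 1 or 2. It had no value on growth replicate 3, and without that array its mean stayed at −1.53 while the limma adjusted p was 0.056. FYV7 with −3.02 and −0.81 and BUD21 with −1.63 and −1.21 did not pass. Of the members with the lowest scores with SeMet, ALB1 gave 0.07, 0.09 and 0.94, and NOP13 gave 0.08, 0.22 and 0.60. MAK21 gave 0.02, −0.08 and −0.03, and SSF2 gave 0.01, −0.02 and 0.04. LSG1 spread from −0.66 to 0.71.

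The 3 members that were higher were BUD22 at 3.19, UTP30 at 1.80 and BRX1 at 1.44. BUD22 and UTP30 were each read by 1 probe. On growth replicate 3 the BRX1 probes differed, at 0.80 and 3.94. Without growth replicate 1 the number lower was 5 and the number higher 1, and without growth replicate 2 these were 8 and 1. BUD22, UTP30, BUD23, DBP7, TMA23 and JJJ1 had values on growth replicates 1 and 2 only and could then not be tested. LOC1 had values on growth replicates 1 and 3 only and could not be tested without either. Without growth replicate 1, NOP12, RRP8, SLX9, RLP7 and RRB1 were tested and did not pass. Without growth replicate 2 this held for NOP12, SLX9 and RLP7.

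The untreated pool is the lower part of the score with SeMet and the upper part of the growth score. The sum of both scores stands for 20 µM SeMet over T0 where the untreated DNA on the 20 µM arrays and on the growth arrays was alike. No array compared SeMet with T0 directly, and whether the untreated DNA came from the same cultures is not given in the sources used here. The test of the sum takes the errors of both groups of arrays as independent. Where they share untreated DNA this does not hold, and the adjusted p may then be wrong. Of 45 members, 10 had a higher sum, 2 a lower sum and 33 did not pass, and of all strains 13.3% were higher and 14.1% lower. The median sum was 0.34 over the members and 0.02 over all strains.

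BUD20 had the highest sum, 3.09, from a score of 3.98 with SeMet and −0.89 for growth. It passed narrowly (limma adjusted p = 0.049), and it did not without replicate 2 at 20 µM (limma adjusted p = 0.0719). The BUD20 sum could not be tested without growth replicate 1 or 2. BUD20 had no value on growth replicate 3, and without that array the sum stayed at 3.09 while the limma adjusted p was 0.0558. The sums of ARX1 (1.79), NOP12 (2.12), SLX9 (1.73) and CGR1 (2.17) were higher (limma adjusted p = 0.003, 0.00272, 0.0035 and 0.0148), as were those of JJJ1, BRX1, RSA3, NOP16 and TSR3, which lay between 0.97 and 1.98. BRX1 had 1.44 for growth and 0.52 with SeMet, where it did not pass (limma adjusted p = 0.203). Several of the calls of a higher sum were lost when 1 array was left out. NOP16 and RSA3 did not pass without replicate 2 or 3 at 20 µM or without growth replicate 1 or 2, with limma adjusted p between 0.0622 and 0.0804. JJJ1 did not pass without replicate 2 or 3 at 20 µM (limma adjusted p = 0.0977 and 0.0709) and could not be tested without growth replicate 1 or 2. TSR3 did not pass without replicate 1 or 3 at 20 µM or without growth replicate 1 (limma adjusted p = 0.0606, 0.0564 and 0.0623), nor CGR1 without growth replicate 2 (limma adjusted p = 0.0502). By contrast, LTV1 had 2.22 with SeMet and −2.25 for growth, and its sum was −0.04 (limma adjusted p = 0.966). TIF6 had a sum of −0.51 and LOC1 of −2.33, and neither passed (limma adjusted p = 0.32 and 0.117).

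The sums of SDA1 (−2.68) and NOP56 (−1.62) were lower (limma adjusted p = 0.000688 and 0.00211). They were reached differently, since SDA1 had −2.47 with SeMet and −0.21 for growth, and NOP56 had 0.30 with SeMet and −1.92 for growth. The number with a higher sum was 5 without growth replicate 1 and 6 without growth replicate 2. The number with a lower sum was 4 without replicate 3 at 20 µM, where LOC1 and TIF6 passed.

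**Figure D4:**
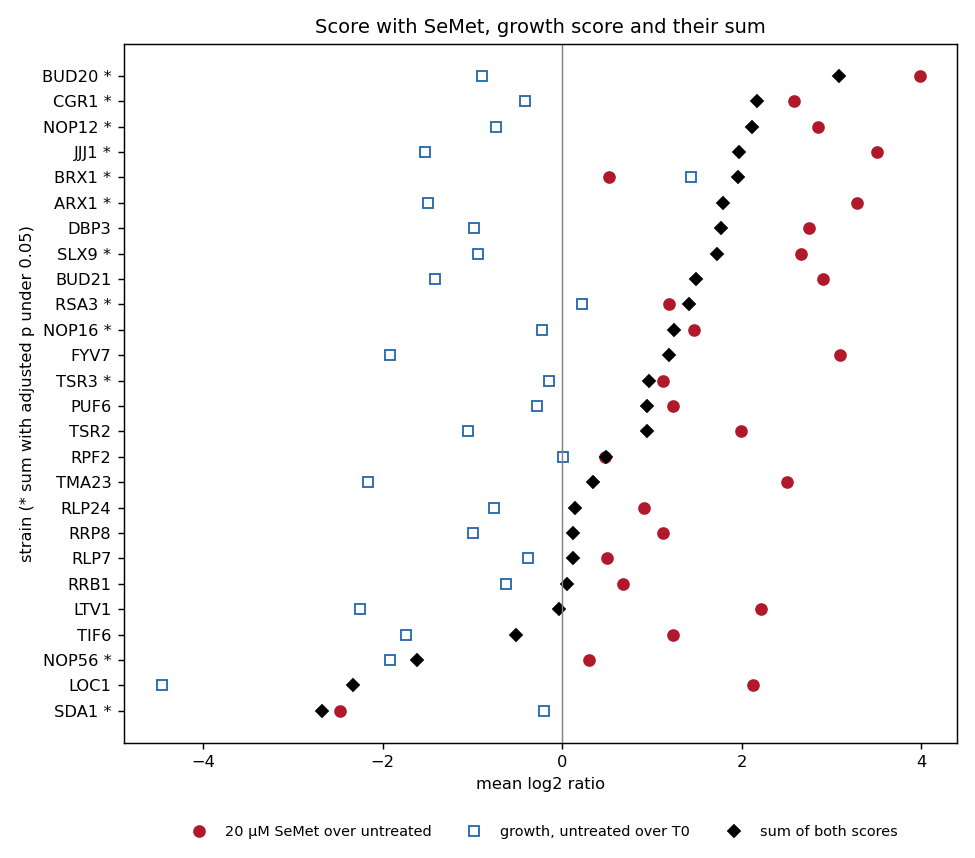
Mean log2 ratios (horizontal axis) of the 26 members called at 20 µM or for the sum, ordered by the sum. Filled circles are 20 µM SeMet over untreated, open squares untreated over T0 and diamonds the sum of both scores, and a star marks a sum with an adjusted p under 0.05. BUD20 has the highest sum at 3.09 and SDA1 the lowest at −2.68, and LTV1 lies at −0.04 between scores of 2.22 and −2.25.

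Assembly factors outside the 56 were read from further lists. Of 35 large subunit factors tested, 5 were higher at 20 µM (14.3%, near the 12.5% of all strains) and 1 was lower, with a median of 0.08. The difference from the 56 was not tested, and these lists were not split by essentiality. ECM1, an export factor that works beside Arx1 and Bud20, was the highest at 2.92 ± 1.05 (SD, n = 3, limma adjusted p = 0.000563), and NOP15 and the export receptor gene MEX67 averaged 1.15 and 0.68. URB2, a nucleolar factor of early large subunit assembly, was lower at −1.66, −2.36 and −3.01 (mean −2.34 ± 0.68, SD, n = 3, limma adjusted p = 0.000312), and averaged 0.06 at 12 µM. It thus had a level near that of SDA1 at each concentration. Of 52 further small subunit factors tested, 2 were higher (HCR1 at 1.74 and RCL1 at 0.72) and 2 lower (UTP11 at −0.66 and UTP6 at −0.60), with a median of 0.06.

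Steps around assembly were read from lists of RNA polymerase I and of the snoRNP and rRNA processing enzymes. Of 11 polymerase I subunits and factors tested, 3 were higher at 20 µM (27.3%, against 12.5% of all strains) and 0 lower (median 0.03). They were RPA49, RPA14 and RPA34, subunits that are not essential, at 3.02, 1.66 and 1.63. Of 29 processing enzymes tested, 8 were higher (27.6%) and 1 lower (median 0.18). Here the nuclear exosome cofactor LRP1 averaged 3.39 and the exosome nuclease RRP6 averaged 1.46. The poly(A) polymerase TRF5, which marks rRNA precursors for decay, averaged 3.16, and PIH1, a factor of box C/D assembly, averaged 2.00. Ribosomal proteins themselves, the end product of the pathway, were higher in 44 of 62 (71.0%) and lower in 2 for the large subunit (median 2.38). For the small subunit 32 of 44 (72.7%) were higher and 3 lower (median 1.80).

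Strains of genes that adjoin a member on the chromosome were read as a check on neighbours. Of 81 tested, 9 were higher at 20 µM (11.1%, near the 12.5% of all strains) and 7 lower, with a median of −0.07. Next to the 23 members called higher, 34 were tested, of which 3 were higher (NIC96 beside LOC1, ECM30 beside TSR2 and PAM18 beside RLP24) and 2 lower (VPS3 beside PUF6 and PET309 beside FYV7). Genes on both sides of BUD20, RFU1 and RPL10, had fewer than 2 values at 20 µM and were not tested. The same held for URE2 and CNM67 beside JJJ1 and for RPC25 and MRP8 beside LTV1.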

How the data were processed

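Barcodes of the pooled strains had been amplified from genomic DNA and hybridized to custom Agilent slides in 2 colours. For each probe the authors deposited a log2 ratio, obtained from scans read in GenePix Pro and normalized by R scripts of their own. The method of that normalization and the background correction are not given in the sources used here, and the values were used as deposited. Signal over background is not part of them, so the number of arrays and the spread between them set the precision. Of 15744 probes, 13084 carry 1 gene name by the platform annotation and 2660 carry none. Probes without a name were left out, 1662 of them with a value.

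The mean over the probes of each gene was taken per array (1 probe for 1 member name, 2 for 43, 3 for 1 and 4 for 10). These counts include probes without a value. Of the members called at 20 µM, BUD21, NOP16 and SLX9 had values from 1 probe only. EFG1 was matched through an older name. The 8 arrays entered a single limma fit (version 3.58.1, R 4.3.3) with a mean for each of the 3 groups, moderated by eBayes and tested two-sided, with Benjamini-Hochberg adjustment over all strains with values on at least 2 arrays of a group. Adjusted p-values are from this fit unless an alternative is named. The residual variance of a strain is pooled over all 8 arrays. The SD of a group printed beside an adjusted p is therefore not the spread used in the test. The fit was tested on simulated data. Python 3.11.15 with pandas 2.3.3 and matplotlib 3.10.9 did the rest. Values for each array are given for the first 5 export members, the 6 highest and 6 lowest means at 20 µM and the lowest growth mean, and other members were named by role. Of each further list at most 4 genes with the largest called means were named, except that all ribosomal clients were. URB2, the neighbouring strains and the members with few values were singled out after their values were seen.

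The members and all lists were chosen with earlier results of these data known. The alternatives were centring or scaling of the arrays, the median over probes, at least 2 probes, only the arrays of a group, values on every array, robust eBayes, the replicate number as a block, limits on the mean, and leaving out each array. Essentiality was assigned from general knowledge of each gene. Annotation served only for names and neighbours. No sequence is shown.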

Additional observations from a re-analysis of the deposited data

How the results depend on the processing

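Of the counts at 20 µM, 23 higher and 1 lower, the number lower was 2 with at least 2 probes (LSG1 passed). In that setting BUD21, NOP16 and SLX9, each read by 1 probe, could not be tested, and YAR1 was higher. The number higher was 14 with a mean above 1.5 and 13 with a mean above 2 (3.42% of all strains). Without 1 array it was 19 to 22, with 1 lower each time. With only the arrays of that group 17 were higher, and BUD21, LOC1, TSR2, TIF6, RLP7 and RPF2 did not pass (limma adjusted p between 0.0539 and 0.105). At 12 µM, 5 members were higher with arrays scaled to the same median absolute deviation, 4 with only the arrays of that group, 2 with eBayes over the strains tested alone (an alternative added after seeing the data), and 1 each with the median over probes and with at least 2 probes. ARX1 was among them in all of these. Without 1 array the number at 12 µM was 0 to 0, but a single array is then left and is assumed to vary like the arrays of the other groups. For 20 minus 12 µM, SDA1 was lower (1 member) with scaled arrays, at least 2 probes, robust eBayes and eBayes over the strains tested alone, where ARX1 was higher (1 member). Without 1 array 0 to 3 were higher and 0 to 1 lower. In growth 1 member was higher with values on every array, where BUD22 and UTP30 could not be tested. Without 1 array 1 to 3 were higher and 5 to 10 lower. With each array centred on its median, BUD20 and JJJ1 did not pass for the sum (limma adjusted p = 0.0565 and 0.051). Without 1 array the counts for the sum were 5 to 10 higher and 2 to 4 lower. The median of large minus small subunit factors was −1.36 at 20 µM and −0.38 at 12 µM, and that of the growth arrays was 0.42, and it became 0.055, 0.029 and −0.073 in that order with only genes that are not essential. At 12 µM it was −0.55 with scaled arrays and −0.24 with at least 2 probes. Without 1 array it was −1.66 to −0.92 at 20 µM, −0.44 to −0.33 at 12 µM and 0.30 to 0.62 for growth. No called member turned its sign under any alternative, and the cause of the other changes was not tested.

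Replicate numbers are shared between groups without a statement that they pair cultures. Deviations of same-numbered arrays from their group means correlated between −0.27 and 0.16 over 4209 strains, and those of differently numbered arrays between −0.19 and 0.27. Deviations within a group of 2 or 3 arrays must cancel, so these values cannot tell whether the numbers pair cultures. With the replicate number as a block, 23 members were higher and 1 lower at 20 µM (LOC1 did not pass at limma adjusted p = 0.0637 and MRT4 did at 0.0228), 1 (SLX9) was higher at 12 µM, 13 were lower and 3 higher in growth (JJJ1 and RLP7 did not pass at limma adjusted p = 0.124 and 0.0564), and the sum was higher for 13 (BUD21, DBP3 and TMA23 passed) and lower for 2.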
